A study of Mus musculus with 51 samples.

Results

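This comparison set cells lacking *T* directly against cells lacking *Eomes* on day 3 of differentiation towards cardiac mesoderm, using 2 of the 18 RNA-seq samples among 51 samples of the series. *T* KO and *Eomes* KO cells were derived from F1G4 mouse embryonic stem cells (mESCs) with a nickase Cas9 and guide RNA pairs placed around the promoter and first exon of each gene. Each line was expanded from a picked clone. A double knockout line (dKO) was made by targeting *T* in the *Eomes* KO line. All differentiated cells, including the F1G4 WT controls, were freed of feeder cells, formed aggregates and were then given 20 ng/ml Bmp4. WT cells in the ES state, used below for *T* and *Eomes* only, carry no Bmp4 dose in the labels. Values are FPKM (fragments counted for a gene, relative to transcript length and library size), 1 value per gene for each line and day. The *T* KO and *Eomes* KO values were deposited in separate tables, each with its own WT column. Each KO column was therefore divided by the median ratio of that WT column to the day 3 column of the WT time course, taken over genes above FPKM 1. The factors were 1.04 for *Eomes* KO and 1.01 for *T* KO. With 1 column per line, read counts not used here and the depth unknown, no test, SD or confidence interval could be given, and a clone effect and a genotype effect cannot be told apart. In these bulk samples, fewer cells of a type and less RNA per cell cannot be told apart either.

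*T* (brachyury) and *Eomes* encode T-box transcription factors that bind related DNA sequences and are switched on in the primitive streak, where epiblast cells leave the epithelium and become mesoderm or endoderm. In the embryo, *Eomes* is known for its role in cardiac mesoderm and definitive endoderm, and *T* for its role in posterior mesoderm and the notochord. Nodal, Wnt, BMP and FGF signals act upstream of both genes and are themselves adjusted by feedback in the streak.

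The knockouts removed sequence around the start sites of *T* and *Eomes*, so the 250 bases before an annotated start of each are shown. They are followed by those of *Fgf5* and *Irx3*, genes with large differences between the KO columns in opposite directions. Sequences are from RefSeq on GRCm38.p6, 5′ to 3′ on the strand of the gene, and the ends of the deletions were not used here. The *Eomes* window reaches a few bases into the gene span given below. Capitals mark matches to AGGTGTNA, a relaxed form of the T-box half-site AGGTGTGA, on either strand.
*T*, chr17:8434173-8434422, plus strand: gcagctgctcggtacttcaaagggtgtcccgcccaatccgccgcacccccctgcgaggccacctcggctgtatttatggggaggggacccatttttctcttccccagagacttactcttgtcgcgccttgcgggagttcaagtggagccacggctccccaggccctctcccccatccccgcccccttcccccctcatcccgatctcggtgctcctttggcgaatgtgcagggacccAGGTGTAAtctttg
*Eomes*, chr9:118477939-118478188, plus strand: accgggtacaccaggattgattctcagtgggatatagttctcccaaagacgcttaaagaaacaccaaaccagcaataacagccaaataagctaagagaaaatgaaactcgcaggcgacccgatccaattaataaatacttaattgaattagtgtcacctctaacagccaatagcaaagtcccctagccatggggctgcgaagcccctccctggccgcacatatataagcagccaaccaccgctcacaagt
*Fgf5*, chr5:98253934-98254183, plus strand: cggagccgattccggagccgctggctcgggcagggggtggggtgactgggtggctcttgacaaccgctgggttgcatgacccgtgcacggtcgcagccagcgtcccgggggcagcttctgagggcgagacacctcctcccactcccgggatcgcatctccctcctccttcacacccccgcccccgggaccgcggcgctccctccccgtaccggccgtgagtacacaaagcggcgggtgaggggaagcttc
*Irx3*, chr8:91801655-91801904, minus strand: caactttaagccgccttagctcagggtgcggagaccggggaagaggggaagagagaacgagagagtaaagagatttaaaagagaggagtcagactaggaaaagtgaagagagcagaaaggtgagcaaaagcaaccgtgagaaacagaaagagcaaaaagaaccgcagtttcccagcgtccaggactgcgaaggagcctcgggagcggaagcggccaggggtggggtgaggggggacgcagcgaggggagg

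AGGTGTGA was found on either strand in 1.12% of 32851 mouse promoter windows of this size, and AGGTGTNA, which includes it and was chosen after the sequences were seen, in 2.68%. Among *T*, *Eomes* and the 30 genes with the largest differences listed below, 25 had a window. AGGTGTGA occurred in 1 of them (*Meg3*) and AGGTGTNA in 2 (*Meg3* and *T*).

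*Eomes* (9:118478186-118486132, mm10) separated the lines in the direction of their labels. On day 3 it stood at 4.78 FPKM in *T* KO, 0.264 in *Eomes* KO, 0.333 in dKO and 19.4 in WT cells, and on day 2 at 23.9, 2.45, 1.25 and 9.50. The *T* KO column was thus above both *Eomes*-mutant columns on both days (log2 ratio to *Eomes* KO 4.18 on day 3 and 3.29 on day 2). *T* (17:8434423-8442496) was low in every KO column on day 3, at 2.98 in *T* KO, 4.27 in *Eomes* KO and 1.86 in dKO against 320 FPKM in WT, so on that day it set both lines apart from WT but not from each other (log2 −0.52). On day 2, *T* was at 6.44 in *T* KO, 22.5 in *Eomes* KO, 2.80 in dKO and 43.6 in WT cells. Exons outside the deleted piece can still contribute reads to these values. In WT cells, *T* went from 0.0784 in the ES state to 0.778 on day 1, and *Eomes* from 0.952 to 2.38.

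Of 24538 genes in the tables, 11420 exceeded FPKM 1 in one or both KO columns and were examined. A gene was called higher or lower when its log2 ratio of *T* KO to *Eomes* KO was above 1 or below −1, the cut that the study used for KO against WT. By this rule 753 genes (6.59% of those examined) were higher and 764 genes (6.69%) lower in *T* KO, 13.3% in all, and the median log2 ratio was 0.02. As a yardstick, WT cells of the *Smad4* line, which carry conditional (loxP-flanked) *Smad4* alleles and come from another source, were compared with F1G4 WT cells on day 2 after scaling to a common median. They differed by this rule in 5.09% of 11125 genes. The *Smad4* line gave 1 sample and the F1G4 column stands for 2, unlike the KO columns. When each column was rescaled to TPM, the share of a transcript among all transcripts, the median of all examined genes moved to −0.35 and the calls to 415 higher and 2127 lower, so directions below are read relative to the median gene.

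**Figure D1:**
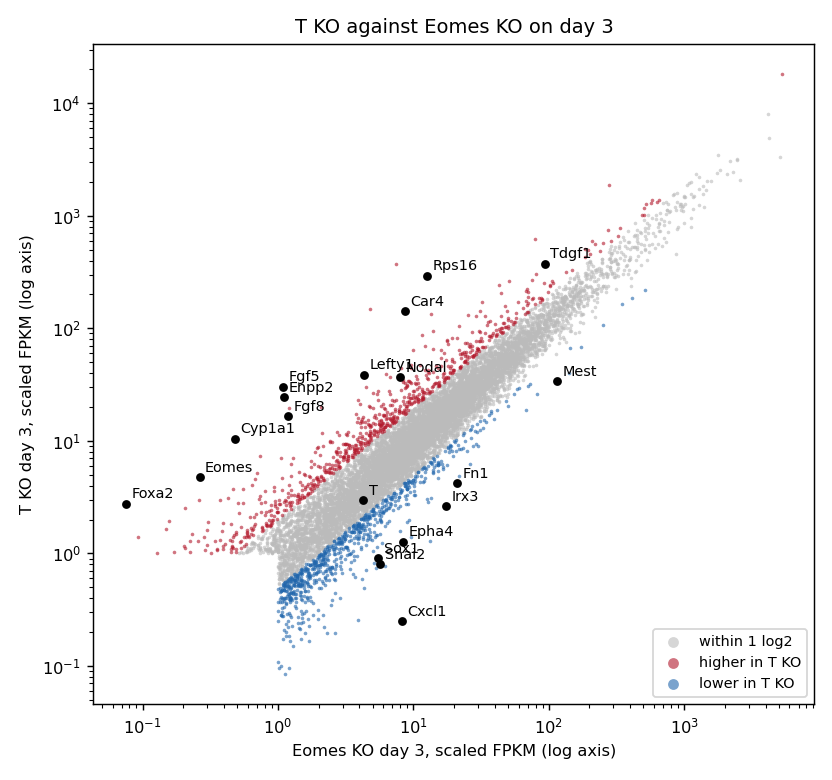
Scaled FPKM in *Eomes* KO (x axis) and *T* KO (y axis) on day 3, log axes, 1 point per examined gene above 0.05 FPKM in both columns. Red points are more than 1 log2 higher and blue points more than 1 log2 lower in *T* KO; *Fgf5*, *Fgf8*, *Enpp2* and *Foxa2* lie far above the diagonal, and *Irx3*, *Sox1*, *Epha4* and *Cxcl1* below it.

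For many genes the *Eomes* KO column of day 3 stood apart from *T* KO and dKO alike. With dKO set beside the pair, the *Eomes* KO value alone was more than 1 log2 from both of the others, on the same side, for 428 of the 753 genes higher in *T* KO (56.8%), against 103 genes (13.7%) for which the *T* KO value alone stood apart. Among the 764 genes lower in *T* KO, these numbers were 287 (37.6%) and 193 (25.3%). On day 2, where 8.82% of examined genes were lower and 4.92% higher in *T* KO, 358 of the 753 genes (47.5%) were past the same rule in the opposite direction and 32 in the same direction. For the 764 genes lower in *T* KO on day 3 these counts were 99 (13.0%) and 20. These percentages are of all 753 and 764 genes, of which 693 and 560 were examined on day 2 and had a ratio. The plot of the log2 ratios on both days shows the reversed genes in its upper left corner.

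**Figure D2:**
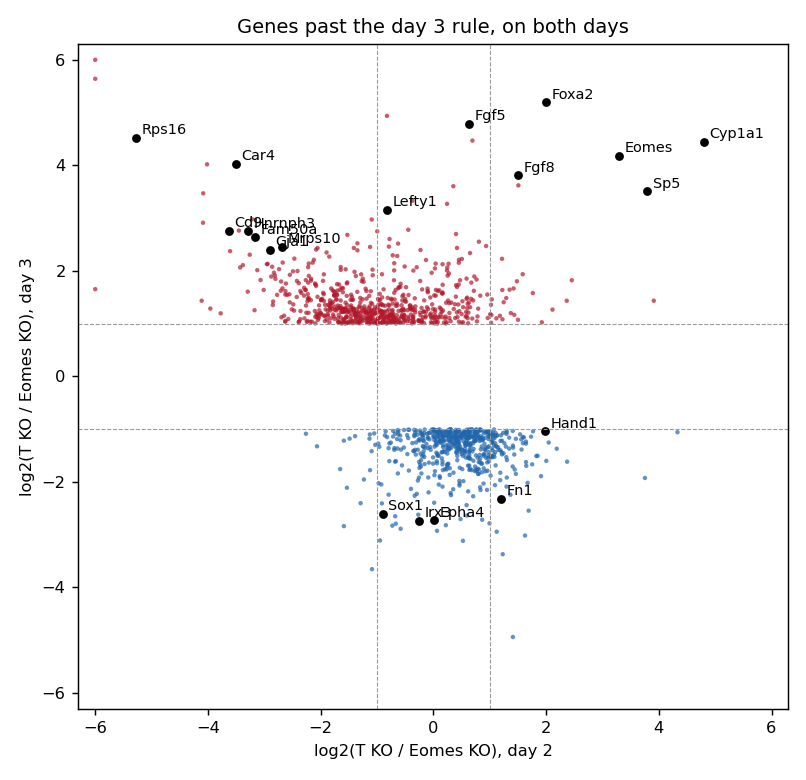
Log2 ratio of *T* KO to *Eomes* KO on day 2 (x axis) and day 3 (y axis) for genes past the day 3 rule and examined on day 2; values beyond 6 are drawn at 6 and dashed lines mark 1 and −1. *Rps16*, *Cd9* and *Gja1* change sign between the days, whereas *Eomes*, *Cyp1a1*, *Sp5*, *Foxa2* and *Fgf8* are higher in *T* KO on both.

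The genes at the centre of this reversal included housekeeping genes. *Rps16*, a protein of the small ribosomal subunit, was at 12.7 in *Eomes* KO on day 3 and 8.27 in *T* KO on day 2, but between 246 and 393 FPKM in *T* KO, dKO and WT cells on day 3 and in *Eomes* KO, dKO and WT cells on day 2. *Gja1* (connexin 43) was at 32.4 and 25.2 in the same columns and between 125 and 189 in the others. *Cd9*, a tetraspanin of the cell surface, was at 13.9 and 3.42 against 42.2 to 94.3 elsewhere. *Mrps10*, of the mitochondrial ribosome, *Hnrnph3*, an RNA-binding protein, and *Fam50a* were also low in this pair of columns and not in the others. Low values in *Eomes* KO on day 3 and *T* KO on day 2 therefore came together for these genes, and their share in the counts above was not tested. Whether these columns share a library preparation or differ from the others in RNA quality is not given in the sources used here and was not tested. Ratios for which *Eomes* KO alone stands apart rest on its single day 3 column.

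Transcript length moved with the difference as well. Over 5 equal groups of protein-coding genes by length, the median log2 ratio on day 3 ran from 0.29 in the shortest to −0.28 in the longest, and on day 2 from −0.20 to 0.18. The median transcript of protein-coding genes higher in *T* KO was 2391 bases long, against 4300 for those lower and 3398 for all examined. With the median ratio removed within groups of GC content and then of length, 500 of 688 protein-coding genes higher in *T* KO and 523 of 683 lower ones were still past the rule. Of the 123 named genes past the rule that this correction covered, 113 stayed past it in the same direction.

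**Figure D3:**
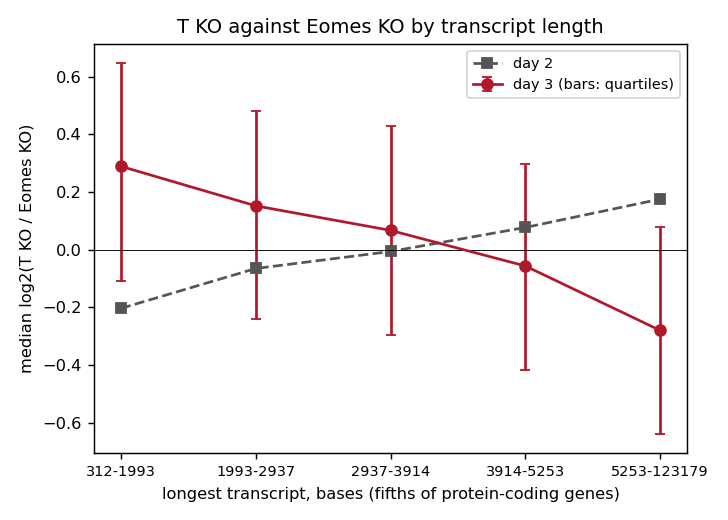
Median log2 ratio of *T* KO to *Eomes* KO (y axis) in 5 equal groups of protein-coding genes by the length of their longest transcript in bases (x axis), on day 3 (circles, bars from the lower to the upper quartile) and on day 2 (squares). The day 3 median falls from 0.29 to −0.28 while the day 2 median rises from −0.20 to 0.18.

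FGF pathway genes were the list with the most members higher in *T* KO. Of 22 listed ligands, receptors and feedback genes, 16 were examined, 9 were higher in *T* KO and none lower, with a median log2 ratio of 1.23 against 0.02 for all examined genes. Among the ligands, *Fgf5* (5:98254184-98277033), which is switched on as epiblast cells leave the naive state, was at 30.3 FPKM in *T* KO, 1.10 in *Eomes* KO, 3.90 in dKO and 26.0 in WT (log2 4.79). *Fgf8* (19:45736491-45742941), which drives migration of cells out of the streak, was at 16.6, 1.19, 10.1 and 55.3 in the same order (log2 3.81). *T* KO was thus close to WT for *Fgf5* but below it for *Fgf8*, and *Eomes* KO was the lowest column for both. *Fgf15* was at 4.62 in *T* KO and 0.673 in *Eomes* KO and *Fgf17* at 2.79 and 0.744. No other listed ligand was past the rule.

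Some of the feedback genes that FGF signalling through ERK is known to induce were past the rule on the same side. *Spry4*, an inhibitor of the receptor pathway, was at 7.38 in *T* KO, 0.735 in *Eomes* KO, 2.19 in dKO and 6.07 in WT (log2 3.33). *Dusp6*, a phosphatase for ERK, was at 46.8, 11.2, 24.6 and 68.7 (log2 2.06). *Spry2*, a relative of *Spry4*, was at 16.0 in *T* KO and 3.93 in *Eomes* KO, with 14.7 in dKO and 19.9 in WT. The remaining feedback genes past the rule were *Dusp4* (log2 1.29) and *Etv5* (log2 1.20). No other listed feedback gene was past it. For 7 of the 9 genes *Eomes* KO lay more than 1 log2 below dKO as well as *T* KO, and for 2 of them (*Fgf5* and *Spry4*) *T* KO also lay more than 1 log2 above dKO. On day 2 only *Spry2* was past the rule in the opposite direction. All 9 stayed past it after the correction for GC content and length. None of the listed receptors was past the rule. *Fgfr1* was at 29.0 in *T* KO and 49.5 in *Eomes* KO and *Fgfr2* at 13.4 and 19.7, within the cut.

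**Figure D4:**
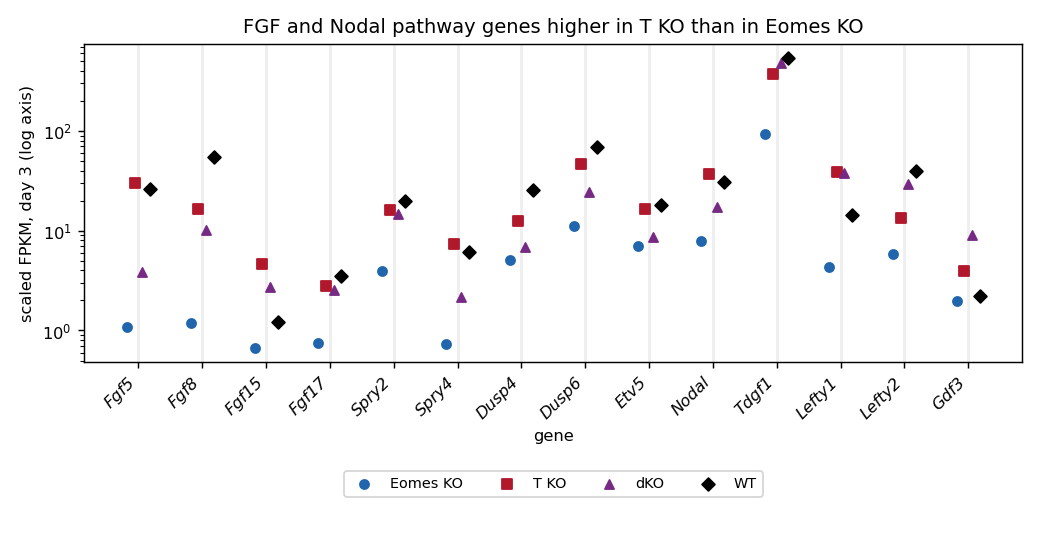
Scaled FPKM on day 3 (y axis, log) of 14 FGF and Nodal pathway genes more than 1 log2 higher in *T* KO than in *Eomes* KO (x axis); circles are *Eomes* KO, squares *T* KO, triangles dKO and diamonds WT, 1 value each. *Eomes* KO is the lowest column for all 14 genes shown.

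Nodal pathway genes showed 6 of 14 examined members (18 listed) higher in *T* KO and none lower. Their median was 0.33, against 0.02 for all examined genes. When the columns were rescaled to TPM, these medians over the same genes were 0.00 and −0.31. *Nodal* itself, the ligand, was at 36.8 FPKM in *T* KO, 7.95 in *Eomes* KO, 17.2 in dKO and 30.8 in WT (log2 2.21). *Tdgf1*, its co-receptor, was at 377, 93.6, 479 and 533 (log2 2.01). Both KO columns held the ligand and the co-receptor, with *T* KO nearer to WT. Of the inhibitors that Nodal induces, *Lefty1* (1:180935022-180938401) was at 38.7 in *T* KO, 4.35 in *Eomes* KO, 37.9 in dKO and 14.3 in WT (log2 3.15), so that the KO lines lay on either side of WT. *Lefty2* was at 13.5 and 5.81 in the KO lines against 29.1 in dKO and 39.3 in WT (log2 1.22). *Gdf3*, a ligand of the same family, differed by log2 1.01, was past the rule in the opposite direction on day 2 (log2 −1.17) and was no longer past the day 3 rule after the correction for GC content and length (0.77). In all 6 genes *Eomes* KO was more than 1 log2 below dKO, an *Eomes* mutant too. The signal transducers *Smad2*, *Smad3* and *Foxh1* stayed within the cut.

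Genes of the anterior streak and endoderm were mostly too low to examine: 4 of 16 listed genes were, of which 2 were higher in *T* KO. *Foxa2*, a pioneer factor of endoderm and the node, was at 2.77 FPKM in *T* KO, 0.0758 in *Eomes* KO, 0.299 in dKO and 4.50 in WT. Its log2 ratio was 5.19, with an *Eomes* KO value near the lower end of the scale. *T* KO was above both *Eomes*-mutant columns, as it was on day 2 (1.24 against 0.310 and 0.381). The other gene past the rule was *Fgf17*, given above, while *Otx2*, a factor of the anterior epiblast, was at 19.5 and 16.6.

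Nascent mesoderm regulators were low in both lines. Of 16 listed genes 5 were examined and 3 were higher in *T* KO: *Fgf8*, *Sp5* and *Apln*. *Sp5*, a direct target of Wnt signalling, was at 2.98 in *T* KO, 0.262 in *Eomes* KO, 0.589 in dKO and 12.7 in WT (log2 3.51), and *Apln*, the ligand of the apelin receptor, at 1.32, 0.374, 0.423 and 25.6 (log2 1.82). Both were higher in *T* KO on day 2 too (log2 3.80 and 2.46), and in both *T* KO lay above dKO by more than 1 log2. For *Sp5*, *Eomes* KO also lay more than 1 log2 below dKO. *Mixl1*, *Rspo3*, *Evx1* and *Lhx1*, which WT cells held at 15.6, 17.5, 4.92 and 1.26 FPKM, were at or below 0.368 in both lines, and *Mesp1*, at 5.45 in WT, was listed at 0 in both. The difference between the lines was thus taken at a level far below WT for most of these genes. *Fst*, which encodes an antagonist of Activin, was at 3.77 in *T* KO and 2.25 in *Eomes* KO against 174 in WT, and the imprinted RNA *H19* at 3.07 and 3.11 against 627.

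Other T-box genes did not separate the lines. Of 17 listed, 4 were examined and *Eomes* alone was past the rule. *Tbx3* was at 6.41 in *T* KO and 6.23 in *Eomes* KO and *Mga* at 19.3 and 28.3.

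Wnt ligands and targets were divided. The median log2 ratio was 0.12 for the ligands and −0.60 for the targets and modulators, against 0.02 for all examined genes. Of 8 examined ligands (19 listed), *Wnt3*, needed for streak formation, was at 7.40 FPKM in *T* KO, 2.87 in *Eomes* KO, 9.35 in dKO and 25.0 in WT (log2 1.37), and *Wnt5b* at 3.07, 0.731, 2.57 and 17.8 (log2 2.07). No ligand was lower. Of 13 examined targets and modulators (22 listed), *Sp5* and the receptor *Fzd10* (23.3 against 7.49, log2 1.64) were higher in *T* KO, while *Sfrp1* (log2 −1.61) and *Sfrp2* (−1.30), secreted Wnt inhibitors, and *Sp8* (−1.23) were lower. *Axin2*, the standard target of the pathway, was at 6.39 and 5.03, within the cut.

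BMP pathway genes were similarly split, with 3 of 15 examined members (23 listed) higher and 2 lower in *T* KO and a median of −0.08. *Id3*, a direct target, was at 92.5 in *T* KO, 31.3 in *Eomes* KO, 47.2 in dKO and 40.9 in WT (log2 1.56). *Id1*, another target, differed by log2 1.13 on day 3 and by −2.07 on day 2, and by 0.82 on day 3 after the correction for GC content and length. *Msx1* was at 3.69 against 1.26 (log2 1.55). The receptor *Bmpr2* (−1.50) and the inhibitory *Smad6* (−1.13) were lower in *T* KO. *Bmp4* transcripts were at 1.13 and 1.20.

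Outside these lists, the highest ratios among genes of at least 10 FPKM included *Enpp2*, the enzyme that makes lysophosphatidic acid, at 24.4 in *T* KO, 1.10 in *Eomes* KO, 5.91 in dKO and 11.6 in WT (log2 4.47). *Cyp1a1*, a target of the aryl hydrocarbon receptor, was at 10.5, 0.479, 3.56 and 11.6 on day 3 (log2 4.45) and was higher in *T* KO on day 2 as well (15.2 against 0.544, log2 4.80). For this pair dKO fell between the single KO lines. *Car4*, a carbonic anhydrase, was at 141 in *T* KO and 8.69 in *Eomes* KO on day 3 (log2 4.03), but at 1.73 and 19.7 on day 2. *Slc30a1*, a zinc exporter, was at 22.9 and 3.91 (log2 2.55), with 7.76 in dKO and 22.8 in WT. *Rps27*, of the small ribosomal subunit, was at 147 in *T* KO, 4.81 in *Eomes* KO, 181 in dKO and 20.8 in WT (log2 4.94). Within the 15 highest genes of this rule, 7 were past it in the opposite direction on day 2.

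Immediate early genes, transcripts of fast response to growth factor or stress, had 7 of 13 examined members (16 listed) higher in *T* KO and 1 lower, with a median of 1.13. *Egr1* was at 5.15 FPKM in *T* KO, 0.702 in *Eomes* KO, 0.511 in dKO and 0.798 in WT (log2 2.87), and *Egr2* at 1.40, 0.0926, 0.0962 and 0.522 (log2 3.92). *Atf3* was at 26.2, 6.71, 10.2 and 15.8 (log2 1.96). In each of these *T* KO stood above every other day 3 column, WT included. *Btg2* (log2 1.58), *Nr4a1* (1.35), *Dusp1* (1.15) and *Ier2* (2.27, and −1.85 on day 2) were the other members higher, and *Ier3* was lower (−1.14). For 6 of the 8 genes past the rule *T* KO lay apart from dKO too.

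Interferon response genes had 6 of 12 examined members (16 listed) higher and none lower, with a median of 0.82 that became 0.16 after the correction for GC content and length, under which the 5 called genes with a ratio stayed past the rule. *Isg15*, listed at 0 in *Eomes* KO, has no ratio to correct. *Irf1*, a transcription factor of the response, was at 64.1 in *T* KO, 9.87 in *Eomes* KO, 14.3 in dKO and 76.5 in WT (log2 2.70). *Ifitm1* was at 45.9, 14.7, 17.6 and 32.5 (log2 1.64) and *Psmb8*, of the immunoproteasome, at 14.4, 5.00, 7.89 and 68.0 (log2 1.53). *T* KO lay between *Eomes* KO and WT for *Irf1* and *Psmb8* and above both for *Ifitm1*. *Bst2* and *Psmb9* (log2 1.37 and 1.19) were past the rule in the opposite direction on day 2, and *Isg15* was listed at 0 in *Eomes* KO and at 1.23 in *T* KO.

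Of 19 examined pluripotency genes (21 listed), 5 were higher in *T* KO and none lower. Their median was 0.48, against 0.02 for all examined genes. After rescaling to TPM, these medians over the same genes were 0.15 and −0.31. Of the 5 genes, 2 (*Fgf5* and *Tdgf1*) were still past the rule after the correction for GC content and length. *Pou5f1* was at 308 in *T* KO and 242 in *Eomes* KO, *Nanog* at 96.2 and 67.7 and *Sox2* at 39.2 and 33.7, within the cut. *Dppa5a* (log2 1.25, and −1.83 on day 2), *Utf1* (1.11) and *Klf2* (1.03) were the remaining members past the rule.

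Genes higher in *Eomes* KO included regulators of neural fate. Of 12 examined members (26 listed), 4 were lower and 2 higher in *T* KO, with a median of −0.16. *Irx3* (8:91798511-91801654), a homeobox gene of the neural plate, was at 17.5 FPKM in *Eomes* KO, 2.62 in *T* KO, 10.1 in dKO and 0.690 in WT (log2 −2.74), and its neighbour in the same cluster, *Irx5*, at 5.07 in *Eomes* KO, 1.06 in *T* KO and 0.115 in WT (log2 −2.26), with dKO between the single KO lines. *Sox1*, the earliest marker of the neural plate, was at 5.51, 0.905, 6.24 and 0.192 (log2 −2.60). All KO columns exceeded WT for these genes, and *T* KO was the lowest of them. *Ncam1*, a neural adhesion molecule, was at 2.68 and 0.814 (log2 −1.72). Members higher in *T* KO were *Sox3* (log2 1.10) and *Nes* (1.07). *Pax6* did not reach FPKM 1 in either line, at 0.661 in *Eomes* KO and 0.139 in *T* KO, and was at 3.88 in dKO.

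Receptors and ligands that guide migrating cells and axons had 7 of 17 examined members (25 listed) lower and 4 higher in *T* KO, all 11 still past the rule after the correction for GC content and length. *Epha4*, an ephrin receptor, was at 8.41 in *Eomes* KO, 1.27 in *T* KO, 6.88 in dKO and 5.71 in WT (log2 −2.73). *Nrp1*, a receptor for semaphorins and VEGF, was at 3.70, 0.613, 1.25 and 0.492 (log2 −2.59), and *Plxna2*, a plexin that signals with neuropilins, at 1.50, 0.269, 0.543 and 1.54 (log2 −2.48). *T* KO lay below dKO by more than 1 log2 for these 3 genes, and for *Nrp1* and *Plxna2* *Eomes* KO also lay more than 1 log2 above dKO. *Nrp2* (−1.62), *Efna5* (−1.50), *Cxcl12* (−1.39) and *Flrt3* (−1.35, and 1.15 on day 2) were also lower. The members higher in *T* KO were the receptors *Epha2* (27.5 against 5.44, log2 2.34), *Epha1* (1.28) and *Ackr3* (1.57) and the semaphorin *Sema6a* (1.53).

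**Figure D5:**
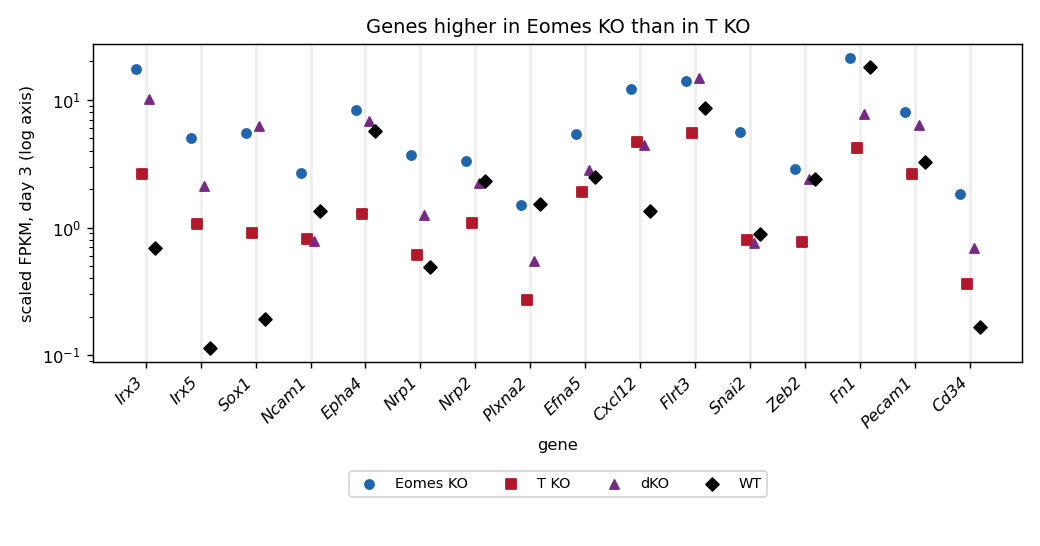
Scaled FPKM on day 3 (y axis, log) of 16 genes more than 1 log2 higher in *Eomes* KO than in *T* KO (x axis), with circles for *Eomes* KO, squares for *T* KO, triangles for dKO and diamonds for WT, 1 value each. For *Irx3*, *Irx5* and *Sox1* every KO value lies above WT; for *Epha4* and *Zeb2* *T* KO is the lowest column.

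Transition from epithelium to mesenchyme was not a one-sided group, with 3 of 16 examined genes (20 listed) lower and 1 higher in *T* KO. *Snai2*, a repressor of E-cadherin, was at 5.63 in *Eomes* KO, 0.803 in *T* KO, 0.756 in dKO and 0.883 in WT (log2 −2.81). *Zeb2*, another such repressor, was at 2.88, 0.776, 2.38 and 2.40 (log2 −1.89). *Fn1*, fibronectin, was at 21.1, 4.22, 7.73 and 18.0 (log2 −2.32) and was past the rule in the opposite direction on day 2 (log2 1.20). *Eomes* KO stood alone for *Snai2* and *T* KO for *Zeb2*. *Pcdh8*, a protocadherin of the streak, was higher in *T* KO (1.93 against 0.157, log2 3.62). *Cdh1* itself was at 174 in *T* KO and 129 in *Eomes* KO.

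Genes of blood and endothelium were low throughout, with 3 of 17 examined and 2 of them lower in *T* KO. *Pecam1*, an adhesion molecule of endothelium, was at 8.01 in *Eomes* KO, 2.65 in *T* KO, 6.38 in dKO and 3.24 in WT (log2 −1.60), and *Cd34* at 1.83, 0.361, 0.687 and 0.165 (log2 −2.34). *Kdr* was listed at 0 in *Eomes* KO and 0.0146 in *T* KO.

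Cardiac and lateral mesoderm regulators had 2 of 8 examined members (18 listed) higher and 2 lower in *T* KO. *Hand1*, a factor of lateral and extra-embryonic mesoderm, was at 60.3 in *Eomes* KO, 29.3 in *T* KO, 31.0 in dKO and 20.5 in WT on day 3 (log2 −1.04), just past the cut. On day 2 it was at 1.73 in *Eomes* KO and 6.80 in *T* KO (log2 1.98). *Smarcd3* was lower in *T* KO (1.20 against 0.415, log2 −1.54), and *Msx1*, given above, was among the higher members. *Isl1*, *Aldh1a2* and *Gata4* were below FPKM 1 in both lines, and *Actc1* stood at 3.63 in *T* KO and 2.47 in *Eomes* KO. Of 5 examined paraxial and posterior genes (18 listed), *Pcdh8* and *Tcf15* were higher in *T* KO and *Dll1* and *Cyp26a1* lower, and *Tcf15* had the opposite sign on day 2 (log2 −1.90 against 2.35).

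Among the 15 lowest ratios of genes of at least 10 FPKM, *Polr2a*, the largest subunit of RNA polymerase II, was at 12.7 in *Eomes* KO, 2.89 in *T* KO, 3.73 in dKO and 7.29 in WT (log2 −2.14). *Srrm2*, a splicing factor, was at 67.6, 18.8, 25.1 and 24.1 (log2 −1.84), and *Arid1a*, a subunit of the BAF remodelling complex, at 24.7, 8.05, 9.83 and 12.3 (log2 −1.62). *Eomes* KO was the highest column for all 3. *Zmiz1*, a transcriptional coregulator, was at 13.4 in *Eomes* KO and 3.13 in *T* KO, and *Ubqln2* (−2.09), *Leng8* (−2.06), *Dhx9* (−1.65) and *Tmem131* (−1.62) lay on the same side. The median length of these 15 transcripts was 5599 bases, against 2137 for the 15 highest, and the 14 of them that are protein-coding stayed past the rule after the correction for GC content and length. *Adnp*, at 13.4 in *Eomes* KO and 1.29 in *T* KO (log2 −3.37), shares sequence with a near-identical copy and is uncertain.

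Also among the 15 lowest, *Gap43*, a growth cone protein, was at 30.1 in *Eomes* KO, 9.06 in *T* KO, 28.5 in dKO and 7.82 in WT (log2 −1.73). *Tnnt3*, a troponin of fast muscle, was at 29.0, 9.36, 31.9 and 10.6 (log2 −1.63). In both genes the *Eomes*-mutant columns were high and *T* KO was close to WT. *Tgfbi*, a matrix protein, was at 15.2, 4.71, 9.62 and 6.96 (log2 −1.69).

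Imprinted genes had 6 of 18 examined members (21 listed) lower in *T* KO and 1 higher, with a median of −0.57. After the correction for GC content and length, which covers protein-coding members only, the median was −0.25. *Meg3*, a long noncoding RNA expressed from the maternal allele, was at 21.9 in *Eomes* KO, 4.91 in *T* KO, 7.32 in dKO and 3.61 in WT (log2 −2.15). *Mest*, expressed from the paternal allele, was at 115, 34.1, 76.0 and 41.9 (log2 −1.76), and *Peg10* at 251, 107, 113 and 121 (log2 −1.22). *Eomes* KO was the highest column for these 3 genes. *Snrpn* was higher in *T* KO (log2 1.93) with the opposite sign on day 2 (−1.28), and *Nnat*, *Dlk1* and *Kcnq1ot1* made up the rest of those lower.

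A few genes lay more than 1 log2 below WT in one line and more than 1 log2 above it in the other, with at least 5 FPKM in one of them. There were 11, of which *Cxcl1* and *Ctla2b* were above WT in *Eomes* KO. *Cxcl1*, a chemokine for neutrophils, was at 8.18 in *Eomes* KO, 0.251 in *T* KO, 3.41 in dKO and 0.557 in WT (log2 −5.03), and *Ctla2b* at 5.88, 1.25, 6.22 and 2.74 (log2 −2.24). The remaining 9 were below WT in *Eomes* KO and above it in *T* KO: *Lefty1*, *Enpp2*, *Car4* and *Rps27*, given above, with *1190005I06Rik* and *Gm10052*, which have near-identical copies, and *Snora74a*, *Snord15a* and *Snord17*. The last 3 are short RNAs, and the 70 short RNAs examined with a value above 0 in both columns had a median log2 ratio of 1.02. *Mir5136* was the only gene listed at 0 in one line, *Eomes* KO, with at least 5 FPKM in the other (8.19).

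The remaining pathway lists had few members past the rule. Of 12 examined Notch genes (20 listed), *Dll1* and *Notch3* were lower in *T* KO (log2 −1.04 and −1.12), and *Notch3* fell within the cut after the correction for GC content and length (−0.65) and was past the rule in the opposite direction on day 2 (1.20). Of 9 examined retinoic acid genes (16 listed), *Rarb* and *Cyp26a1* were lower. Atf4 targets had 4 of 13 examined members (14 listed) higher and *Vldlr* lower, glycolysis and hypoxia genes 3 of 15 (16 listed) higher and *Egln3* lower, and cell cycle genes *Cdkn1a* higher and *Mki67* lower out of 15 (16 listed). *Cdkn1a* and *Mki67* were past the rule in the opposite direction on day 2 (log2 −1.32 and 1.08), and *Mki67* was within the cut on day 3 after the correction for GC content and length (−0.66). *Trib3* and *Vldlr* of the Atf4 list and *Eno1* of the glycolysis list also reversed on day 2. Of 39 *Hox* genes, 2 were examined and none was past the rule.

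Markers of other cell types were measured beside these groups. Of 14 feeder fibroblast markers, 4 were examined and all 4 were lower in *T* KO (*Acta2*, *Loxl1*, *Fbn1* and *Postn*). The summed level of the 14 was 44.5 FPKM in *Eomes* KO, 18.7 in *T* KO, 85.1 in dKO and 15.9 in WT, most of it from *Acta2* (34.3, 14.8, 77.1 and 10.7), while *Col1a1*, a defining marker, was at 0.906, 0.473, 0.505 and 0.471. Their part in the genes higher in *Eomes* KO was not tested. Trophoblast and amnion genes had 3 of 10 examined members (16 listed) lower (*Hand1*, *Plac1* and *Tfap2a*) and *Eomes* higher, extra-embryonic endoderm markers 1 of 4 (15 listed), *Ttr*, at 1.06 in *Eomes* KO and listed at 0 in *T* KO, and germ cell markers none of 5 (9 listed). The 4 Y-linked genes summed to 0.0867 in *Eomes* KO, 0.166 in *T* KO and 0.210 in dKO against 18.0 FPKM in F1G4 WT cells. They thus set every KO line apart from WT but did not separate the KO lines from each other. Whether other differences from WT go with this was not tested. Medians of protein-coding genes by chromosome lay between −0.06 (X) and 0.12 (14).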

How the data were processed

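RNA of 2 KO lines, a dKO line and WT cells was compared on days 2 and 3. The authors trimmed reads with cutadapt 2.9, aligned them with Hisat2 2.1.0 to mm10 with the refSeq annotation and deposited FPKM computed with Cuffdiff 2.2.1 with multi-read and bias correction, per their methods. Libraries were strand-specific and made from total RNA. The labels give 1 sample per KO line and day, whereas the legends speak of averages of replicates, so how many samples a KO column holds is unclear. The 2 WT samples of a day share 1 column. Each KO column was scaled as described above, with Python 3.11.15, numpy 2.4.6 and pandas 2.3.3, and no test was run. Medians of gene lists use log2(FPKM + 0.1), which understates differences of low genes, and include genes listed at 0; other ratios have no pseudocount. The code for the scaling and the fold rule was run on simulated columns with known changes. The changed genes carried no noise, so this checked the code only and not the calls in the real columns.

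Named genes are *T* and *Eomes*; the 15 highest and 15 lowest ratios among called genes with at least 10 FPKM in the higher column and above 0 in both, without short RNAs (transcripts of at most 300 bases) or near-identical copies (95% identity over 50% of the transcript, blastn 2.17.0, GENCODE M21); members of 29 gene lists past the rule or named by the study; genes on opposite sides of WT; and genes listed at 0 in one line. The members and lists were chosen with earlier results of these data known. Lengths and positions are from GRCm38 annotations, which matched 24448 of 24538 symbols. Alternatives were FPKM minimums, pseudocounts, scalings, gene classes, a stricter cut and a correction for GC content and length. Of the value columns, 3 (*Smad4* line) were not used. The tables hold no columns of the authors' own comparisons. One gene of the lists is counted with its list but not reported here.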

Additional observations from a re-analysis of the deposited data

Results flagged for a closer look

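For 30 named genes with a ratio on both days, the log2 ratio of *T* KO to *Eomes* KO was past the rule in opposite directions on day 3 and day 2, with 1 column per line and day and no test of the difference between days. Among genes named for their size of difference, the ratios on days 3 and 2 were 4.53 and −5.27 for *Rps16*, 4.03 and −3.51 for *Car4*, 2.76 and −3.63 for *Cd9*, 2.75 and −3.29 for *Hnrnph3*, and 2.64 and −3.17 for *Fam50a*. For *Mrps10* they were 2.46 and −2.68 and for *Gja1* 2.40 and −2.90. Of the genes lower in *T* KO on day 3, *Fn1* stood at −2.32 and 1.20 and *Leng8* at −2.06 and 1.09. Among genes of uncertain assignment, *Gm10052*, a near-identical copy of *Hnrnpa1*, was at 5.64 and −15.17 (a day 2 value close to 0 in *T* KO), and the short RNAs *Snord15a* and *Snord17* at 2.39 and −1.35 and at 2.52 and −1.35. Among list members higher in *T* KO on day 3, they were 2.35 and −1.90 for *Tcf15*, 1.01 and −1.17 for *Gdf3*, 1.13 and −2.07 for *Id1*, 2.02 and −1.08 for *Spry2*, 1.25 and −1.83 for *Dppa5a* and 1.93 and −1.28 for *Snrpn*. They were 2.27 and −1.85 for *Ier2*, 1.17 and −1.09 for *Trib3*, 1.34 and −1.46 for *Eno1*, 1.37 and −1.09 for *Bst2*, 1.19 and −1.47 for *Psmb9* and 1.31 and −1.32 for *Cdkn1a*. Of list members lower in *T* KO on day 3, the ratios were −1.04 and 1.98 for *Hand1*, −1.12 and 1.20 for *Notch3*, −1.35 and 1.15 for *Flrt3*, −1.37 and 2.19 for *Loxl1*, −1.62 and 1.64 for *Vldlr* and −1.12 and 1.08 for *Mki67*. *Mir5136*, listed at 0 in *Eomes* KO on day 3 and in *T* KO on day 2, has no ratio on either day.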

How the results depend on the processing

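The main counts were 764 genes lower and 753 higher in *T* KO. They moved by more than 1.5 times under some alternatives: without an FPKM minimum 3201 genes were lower and 1980 higher; with a pseudocount of 1 the counts were 249 and 499; after rescaling to TPM 2127 and 415; beyond a log2 ratio of 2, 101 and 112. An FPKM minimum of 5 left 231 lower, with 553 higher. Under the other scalings, the smaller pseudocount, the gene classes and the correction for GC content and length both counts stayed within 1.5 times. The share of higher genes among those called was 49.6%, but 16.3% after rescaling to TPM, 70.5% with the minimum of 5, 66.7% with a pseudocount of 1 and 38.2% without a minimum. In alternatives chosen after seeing the data, leaving out genes past the rule in the opposite direction on day 2 gave 665 lower and 395 higher, and asking that dKO lie on the side of *Eomes* KO, more than 1 log2 from *T* KO, gave 214 lower and 124 higher. Scaling each gene by its own WT value gave 748 and 748. Of 129 named genes past the rule, 102 stayed past it with a pseudocount of 1 and 110 after rescaling to TPM. After the correction for GC content and length, 113 of the 123 with a value stayed past it. The cause of these shifts was not tested. No paired analysis was possible because each line and day has 1 column, which also leaves no replicate to leave out. The unknown depth limits what ratios of genes near FPKM 1 can show; between WT lines the robust SD of the log2 ratio ran from 0.72 for the lowest to 0.20 for the highest group of genes by expression.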
